A study of Mus musculus with 5 samples.

Results

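The natriuretic peptide system of the vessel wall was examined in RNA from thoracic aorta, through the probe sets of 6 genes: the peptide genes Nppa, Nppb and Nppc, the cyclase receptors Npr1 and Npr2, and the clearance receptor Npr3. All probe sets that the platform annotation gives to 1 of these genes alone were taken, which gave 8 of the 45037 probe sets that were not array controls: 3 for Npr3 and 1 for each of the other genes. The family was chosen by the Npr3 difference of this same comparison, which was known beforehand, so every genotype difference below is a description. The study asked what changes in the aorta when PPARγ, a nuclear receptor that binds lipids, is interfered with in smooth muscle.

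Expression was read on 5 arrays of the Affymetrix type Mouse Genome 430 2.0; a probe set is the group of short probes that reads 1 transcript. The 2 control arrays held aorta of male non-transgenic littermates, and the 3 others held aorta of male mice that carry P467L, a dominant negative mutant of human PPARγ. Both groups were labelled C57BL/6 and no other treatment or allele was named; ages are not given in the sources used here. The transgene is driven by the smooth muscle myosin heavy chain promoter, while the RNA came from whole thoracic aorta with all its cell types, and each array is 1 pool of 6 to 8 aortas. In whole tissue, fewer cells of a type and less RNA per cell cannot be told apart.

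Natriuretic peptides are short ring-shaped hormones that relax vessels and promote salt excretion. Nppa encodes ANP and Nppb encodes BNP, both released mainly by heart muscle, and Nppc encodes CNP, made among other places by endothelium. ANP and BNP act through the receptor encoded by Npr1 and CNP through that encoded by Npr2; both receptors carry a guanylyl cyclase inside the cell and raise cGMP, which relaxes smooth muscle through G kinase. The receptor encoded by Npr3 has no cyclase, binds all of these peptides and takes them up for breakdown, and it also couples to inhibitory G proteins.

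Npr3 was lower in P467L aortas by each of its 3 probe sets, by 3.95-fold at the brightest, with all 3 P467L arrays below both non-transgenic arrays. The cyclase receptors Npr1 and Npr2 and the 3 peptide genes differed by at most 0.13 log2 units. None of the 8 probe sets passed the test: limma called 0 of them at an adjusted p of 0.05, where 0% of all 45037 probe sets were called, and 3 of them, all of Npr3 and all lower, had an unadjusted p under 0.05, where 7.44% of all probe sets did, 2.74% on the lower side. The groups did not overlap in 4 of the 8 probe sets against 18.9% of all probe sets. The 3 Npr3 probe sets share 1 gene and are not independent, and counted by gene at the brightest probe set the groups were apart in 2 of 6 genes, Npr3 and Npr2, against 22.7% of 18194 genes.

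Some arrays stood apart from the rest. The correlation of P467L replicate 1 with each other array was 0.985 to 0.991 over all probe sets, while the 4 others reached 0.995 to 0.997 among themselves; the nuclear RNA Malat1 measured 8.03 there and 9.45 to 9.87 elsewhere. In non-transgenic replicate 2 the gastric transcript Gkn2 measured 13.3 against 8.79 to 10.2 in the other arrays. Acta2, the smooth muscle actin, had values from 14.79 to 14.83 in all 5 arrays. Results on Npr3 are given with and without both arrays that stood apart.

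**Figure D1:**
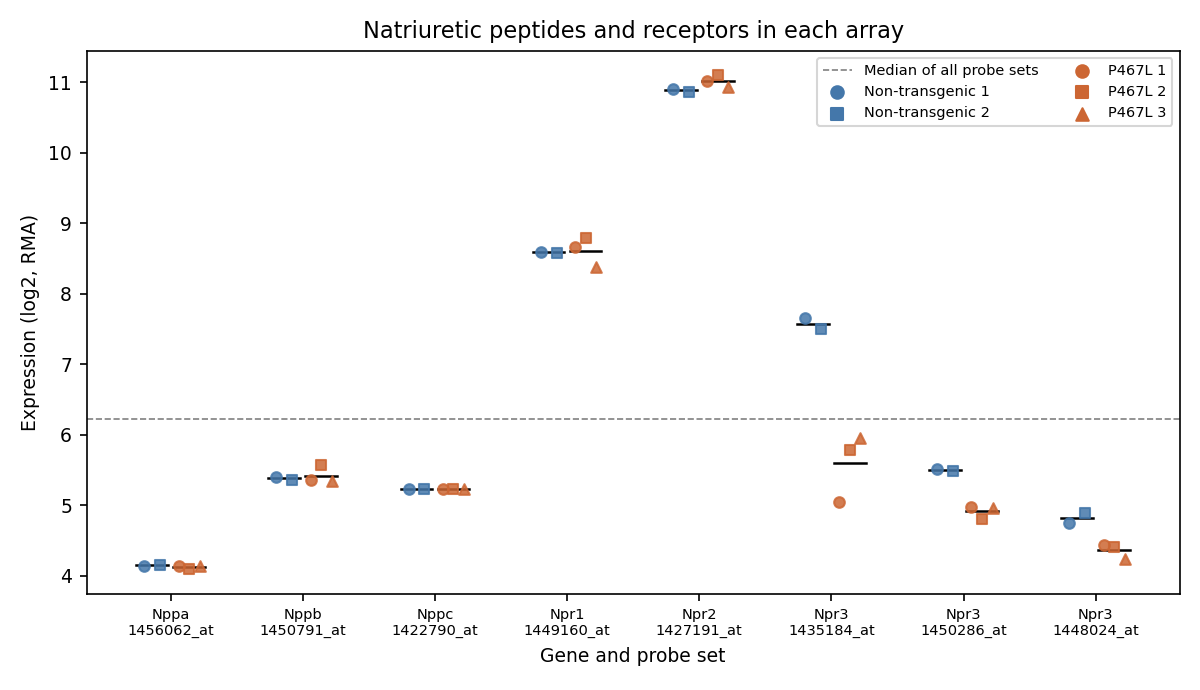
Log2 expression (vertical axis, RMA values) of the 8 probe sets of natriuretic peptide and receptor genes (horizontal axis), with 1 point per array, short lines at the group means and a dashed line at 6.23, the median of all probe sets. The P467L points lie below both non-transgenic points in the 3 Npr3 probe sets, and above them in the Npr2 probe set by a small margin.

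The peptide genes showed no separation of the genotypes. Nppa, which encodes ANP, measured 4.14 and 4.16 in non-transgenic replicates 1 and 2 and, in P467L replicates 1, 2 and 3, 4.14, 4.10 and 4.14. These 5 values lay within 0.06 log2 units and the groups overlapped. The difference, in log2 units and always P467L less non-transgenic, was -0.02 with a 95% interval from -0.12 to 0.07; centring the arrays on their medians made it 0.02. Nppb, which encodes BNP, measured 5.41 and 5.36 in non-transgenic and 5.36, 5.57 and 5.34 in P467L arrays. P467L replicate 2 was the highest and the others lay close together, so the groups overlapped, and the difference was 0.04 with an interval from -0.20 to 0.28.

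Nppc, which encodes CNP, measured 5.23 in each of the 5 arrays, so it held no spread at the 2 decimals deposited. There were 499 such flat probe sets among all, or 1.11%, and 404 of the 499 lay below the median level. The interval of its difference, -0.08 to 0.08, comes from the spread borrowed from other probe sets and not from its own. All 3 peptide probe sets lay below the median of all probe sets. The deposited table holds no detection calls, so whether these values exceed background was not tested, and a change in a transcript at background would not be seen.

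The promoters of the peptide genes are shown because they share a feature that the choice of genes did not use. The lines give the 50 bases before the annotated start, 5′ to 3′ on the strand of the gene, from RefSeq for build GRCm38.p6; capitals mark the letters TATAAA, the core of a TATA box. All 6 genes matched an entry of the promoter table. Nppa lies at chr4:148000672-148000721 on the plus strand, Nppb at chr4:147985850-147985899 on the plus strand and Nppc at chr1:86670574-86670623 on the minus strand.
Nppa: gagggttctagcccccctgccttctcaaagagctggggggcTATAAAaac
Nppb: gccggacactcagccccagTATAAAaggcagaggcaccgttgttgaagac
Nppc: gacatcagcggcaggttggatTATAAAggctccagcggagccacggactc
The letters TATAAA, searched on both strands of the 300 bases from 250 before to 50 after the start, occurred in the 3 peptide genes and in 13.6% of 32851 promoter entries. They began 9 bases before the annotated start in Nppa, 31 in Nppb and 29 in Nppc, so the position in Nppa was unlike the others. Whether these letters serve as a TATA box was not tested. The letters TGATAA, which contain the core GATA that GATA factors bind, occurred in Nppa and Nppb, whose genes neighbour each other, and in 9.05% of entries. They began 122 bases before the start in Nppa and 95 in Nppb. The windows of the 3 receptor genes held neither set of letters.

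The cyclase receptors lay well above the median level and differed little between genotypes. Npr1, the receptor of ANP and BNP, measured 8.60 and 8.58 in non-transgenic arrays and 8.66, 8.79 and 8.38 in P467L arrays. The non-transgenic values sat inside the P467L range of 0.41 log2 units, and the difference was 0.02 (SE 0.14) with an interval from -0.35 to 0.39. Its sign changed with single arrays: it was -0.07 without P467L replicate 2 and 0.14 without P467L replicate 3. It was also -0.03 after a second quantile normalization. Npr2, the receptor of CNP, measured 10.91 and 10.87 in non-transgenic arrays and 11.02, 11.10 and 10.93 in P467L arrays. Here the P467L arrays lay above both non-transgenic arrays, as they did in 11.2% of all probe sets, with the lowest P467L array 0.02 above the nearest non-transgenic one. The difference of Npr2 was 0.13 (SE 0.06) with an interval from -0.04 to 0.30, and limma's adjusted p over all probe sets was 0.784. The intervals allow changes of up to 1.31-fold for Npr1 and 1.23-fold for Npr2, and do not show that these receptors were the same in both genotypes.

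The clearance receptor gene Npr3 had the largest difference of the family. Its brightest probe set, 1435184_at, measured 7.66 and 7.50 in non-transgenic arrays and 5.05, 5.79 and 5.95 in P467L arrays. The non-transgenic values lay 0.16 log2 units apart, the P467L values spread over 0.90, and a gap of 1.55 parts the nearest arrays of the groups. P467L replicate 1, the array with low Malat1, was the lowest. The means were 7.58 ± 0.11 (SD, n = 2) and 5.60 ± 0.48 (SD, n = 3). The difference was -1.98 (SE 0.31), with an interval from -2.82 to -1.15, or 3.95-fold lower with an interval from 2.22 to 7.05. The P467L mean lies below the median of all probe sets, where RMA values can compress differences, which was not tested here. Without P467L replicate 1 the difference was smaller, at -1.71.

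The other Npr3 probe sets were dimmer and gave smaller differences of the same sign. Probe set 1450286_at measured 5.51 and 5.49 in non-transgenic arrays and 4.98, 4.81 and 4.96 in P467L arrays. The groups were 0.51 apart, and the difference was -0.58 (SE 0.07). Probe set 1448024_at measured 4.75 and 4.90 in non-transgenic arrays and 4.44, 4.41 and 4.24 in P467L arrays. The groups were 0.31 apart, and the difference was -0.46 (SE 0.09). The order of the P467L arrays differed between probe sets: replicate 1 was the lowest in the brightest set and the highest in the other 2. All 3 Npr3 probe sets had the P467L arrays below both others, as did 7.61% of all probe sets.

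**Figure D2:**
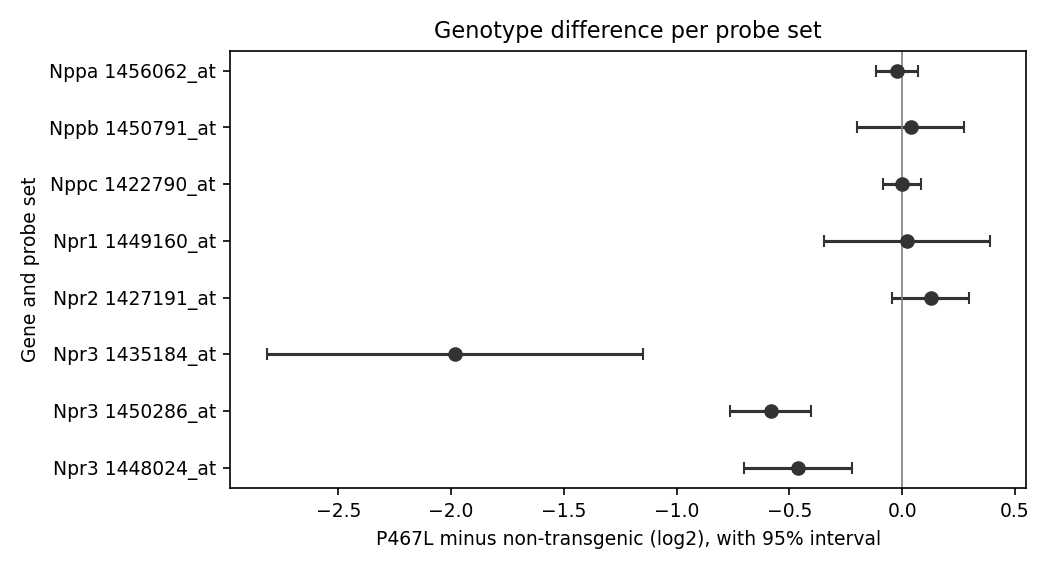
Genotype difference (horizontal axis, P467L minus non-transgenic, log2) for each of the 8 probe sets (vertical axis); points are limma estimates and bars their 95% intervals, not adjusted for multiple tests. The intervals of the Npr3 probe sets lie below 0, from -2.82 to -1.15 at the brightest, and those of the other 5 probe sets include 0.

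The limma adjusted p over all probe sets was 0.329 for 1435184_at, 0.232 for 1450286_at and 0.409 for 1448024_at, and the smallest adjusted p of any probe set was 0.0953. A split of 5 arrays into 3 and 2 can be made in 10 ways, so an exact permutation test, two-sided, cannot go below p = 0.1 here. Without both arrays that stood apart, the brightest Npr3 probe set differed by -1.79 and the others by -0.62 and -0.42, with 1 non-transgenic and 2 P467L arrays left. When any 1 array was left out the difference of the brightest probe set ran from -2.16 to -1.71. The sign of the Npr3 probe sets could not change in this way, since their groups did not overlap.

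Among all 45037 probe sets, 1435184_at had the eighth most negative difference. The 7 below it read 5 genes: Chia1, Clps, Pla2g1b, Pgc and P2rx1. Chia1, Clps, Pla2g1b and Pgc encode digestive proteins of stomach and pancreas, and their differences of -3.10 to -2.17 had SEs of 1.00 to 1.37. P2rx1, an ATP-gated channel of smooth muscle, differed by -2.01 (SE 0.30), close to Npr3 in size and error. In 51 probe sets, 0.113% of all, the P467L arrays were below both others with a mean difference of at least 1 log2 unit, and 1 of these belonged to the natriuretic peptide genes.

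**Figure D3:**
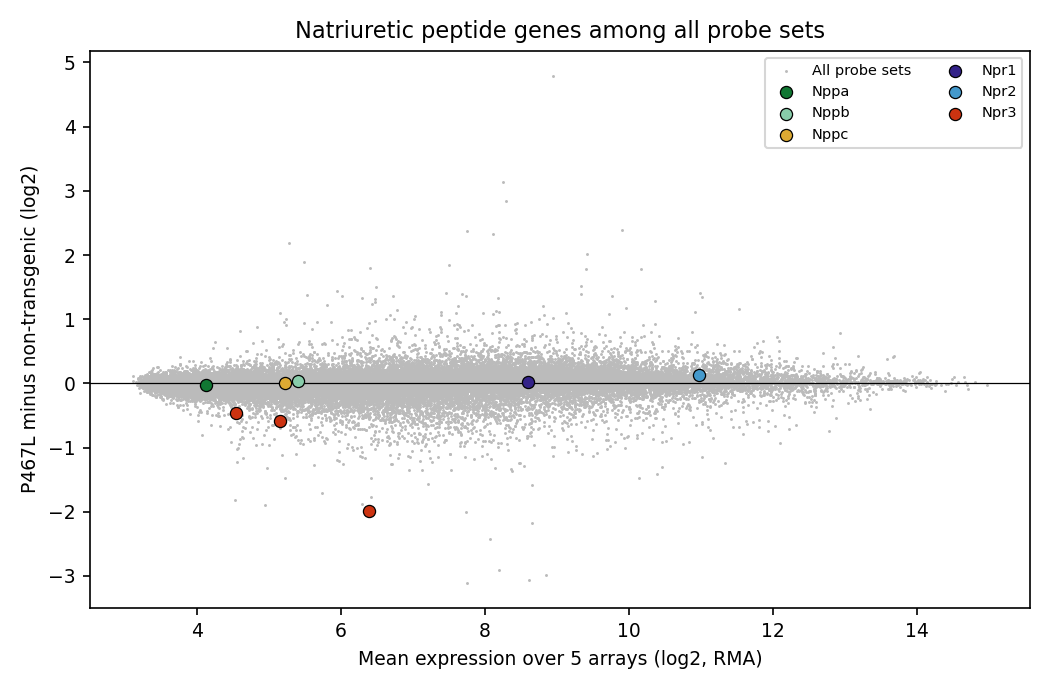
Difference between genotypes (vertical axis, P467L minus non-transgenic, log2) against mean expression over the 5 arrays (horizontal axis, log2) for all 45037 probe sets in grey, with the 8 natriuretic peptide and receptor probe sets in colour. The brightest Npr3 probe set lies at -1.98, outside the dense band of probe sets, and the other 2 Npr3 probe sets at its lower edge, while the remaining 5 lie near 0.

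The sequence before the Npr3 start is shown because Npr3 had the largest difference among the 6 genes and because PPARγ acts by binding DNA. It covers the 250 bases before the annotated start at chr15:11907372-11907621 on the minus strand of GRCm38.p6 (RefSeq), 5′ to 3′; capitals mark an unbroken AGA repeat.
Npr3: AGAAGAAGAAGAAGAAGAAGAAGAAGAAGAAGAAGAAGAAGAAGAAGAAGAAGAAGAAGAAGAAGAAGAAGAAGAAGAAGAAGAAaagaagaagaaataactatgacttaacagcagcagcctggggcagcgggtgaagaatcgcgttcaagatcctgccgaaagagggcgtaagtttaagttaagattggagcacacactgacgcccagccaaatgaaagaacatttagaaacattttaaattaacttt
The repeat ran over 85 bases from the first base shown, so it may continue beyond the window. Within such windows, 28 or more unbroken AGA units on either strand occurred in 5 of 32851 promoter entries. The letters AGGTCA, the core site of PPARγ and many other nuclear receptors, occurred on either strand in 16.3% of entries and not in these windows of the 6 genes. Neither did AGGTCANAGGTCA, the pair of core sites that PPARγ binds with RXR and that contains AGGTCA, found in 13 entries or 0.0396%. The search took exact letters only, so sites that depart from them would be missed, and the absence of so rare a pair says little. A window of 300 bases says nothing of sites elsewhere, and the transgene's binding was not measured.

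The genes on either side of Npr3 gave differences near 0. In the order of the GRCm38.p6 gene table the protein-coding neighbours with a probe set were Adamts12 and Tars on one side and Sub1, Zfr and Mtmr12 on the other. Their differences ran from -0.12 for Sub1, a transcription coactivator, to 0.06 for Tars, a threonyl-tRNA synthetase. Around Nppa and Nppb, the differences of Plod1, 2510039O18Rik, Clcn6 and Agtrap ran from -0.02 to 0.11.

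Other genes that make, break down or answer natriuretic peptides were read from a list of 32 genes, 29 of them measured. Where a gene had several probe sets, the brightest was read. Of the 29 genes, 0 passed an adjusted p of 0.05 by limma, as was the case for 0% of all 18194 genes, and 7 had an unadjusted p under 0.05, 5 higher and 2 lower. That is 24.1% of the list against 9.45% of all genes, of which 6.94% were higher and 2.51% lower. The list's median difference was -0.04 (0.00 with each array centred on its median) against 0.02 for all genes, with 13 genes higher and 16 lower.

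Among enzymes that act on the peptides, Corin, the protease that cuts the ANP precursor, measured 3.86 and 3.81 in non-transgenic arrays and 3.81, 3.55 and 3.87 in P467L arrays, low in all of them, with a difference of -0.09 (SE 0.11). Mme, which encodes neprilysin, the main peptidase of these hormones, measured 6.78 and 6.43 in non-transgenic and 5.97, 6.23 and 6.43 in P467L arrays. Non-transgenic replicate 2 and P467L replicate 3 were equal, so the groups met, and the difference of Mme was -0.40 (SE 0.18). The precursor convertase Furin differed by 0.10, Pcsk6 by -0.15 and the insulin-degrading enzyme Ide by -0.05. Ostn, which encodes a peptide that binds the clearance receptor, was listed too and was not analysed here, nor were the cyclases Gucy2d and Gucy2f.

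Downstream of cGMP the values went both ways. Prkg1, the main G kinase of smooth muscle, measured 9.94 and 10.05 in non-transgenic and 9.47, 10.05 and 10.29 in P467L arrays, with P467L replicate 1 the lowest and a difference of -0.06 (SE 0.27). Prkg2, another G kinase, measured 5.69 in each non-transgenic array, and 7.11, 6.69 and 7.0 in the P467L arrays. The P467L arrays were thus higher by 1.24 (SE 0.14; limma adjusted p = 0.230). Pln, which encodes phospholamban, a brake on the calcium pump of the sarcoplasmic reticulum, measured 7.05 and 6.78 against 7.32, 7.53 and 7.92, a difference of 0.68 (SE 0.21). Rgs2, a regulator of G protein signalling that G kinase activates, measured 8.63 and 8.88 against 8.28, 8.24 and 8.50, a difference of -0.42 (SE 0.12). Mrvi1, also named Irag1, a G kinase substrate that restrains calcium release, differed by 0.18 (SE 0.05), and Pde9a, a cGMP phosphodiesterase, by 0.19 (SE 0.06). Plcb3, a phospholipase C of G protein signalling, differed by 0.16 (SE 0.04). The groups did not overlap in 10 of the 29 genes, or 34.5%, against 22.7% of all genes; Prkg2, Pln, Rgs2, Mrvi1, Pde9a and Plcb3, named for their small p, are among the 10, and none of them passed the adjusted threshold.

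The other guanylyl cyclases measured lower in P467L aortas in 6 of 6 genes, where 56.0% of all genes measured higher. The amounts were small, from -0.15 for Gucy1a1 to -0.04 for Gucy2g, and 3 of the 6 lay below the median level. Gucy1a2 differed by -0.06 (SE 0.39). Centring the arrays on their medians moved the median difference of all probe sets from 0 to 0.04, the size of the Gucy2g difference. Gucy1a1, a subunit of the nitric oxide receptor, measured 12 and 12.02 in non-transgenic and 11.80, 11.85 and 11.93 in P467L arrays, so its groups did not overlap, and it is 1 of the 7 list genes with an unadjusted p under 0.05. Of the inhibitory G protein subunits, through which the clearance receptor signals, Gnai1, Gnai2 and Gnai3 differed by 0.02, 0.04 and 0.04.

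**Figure D4:**
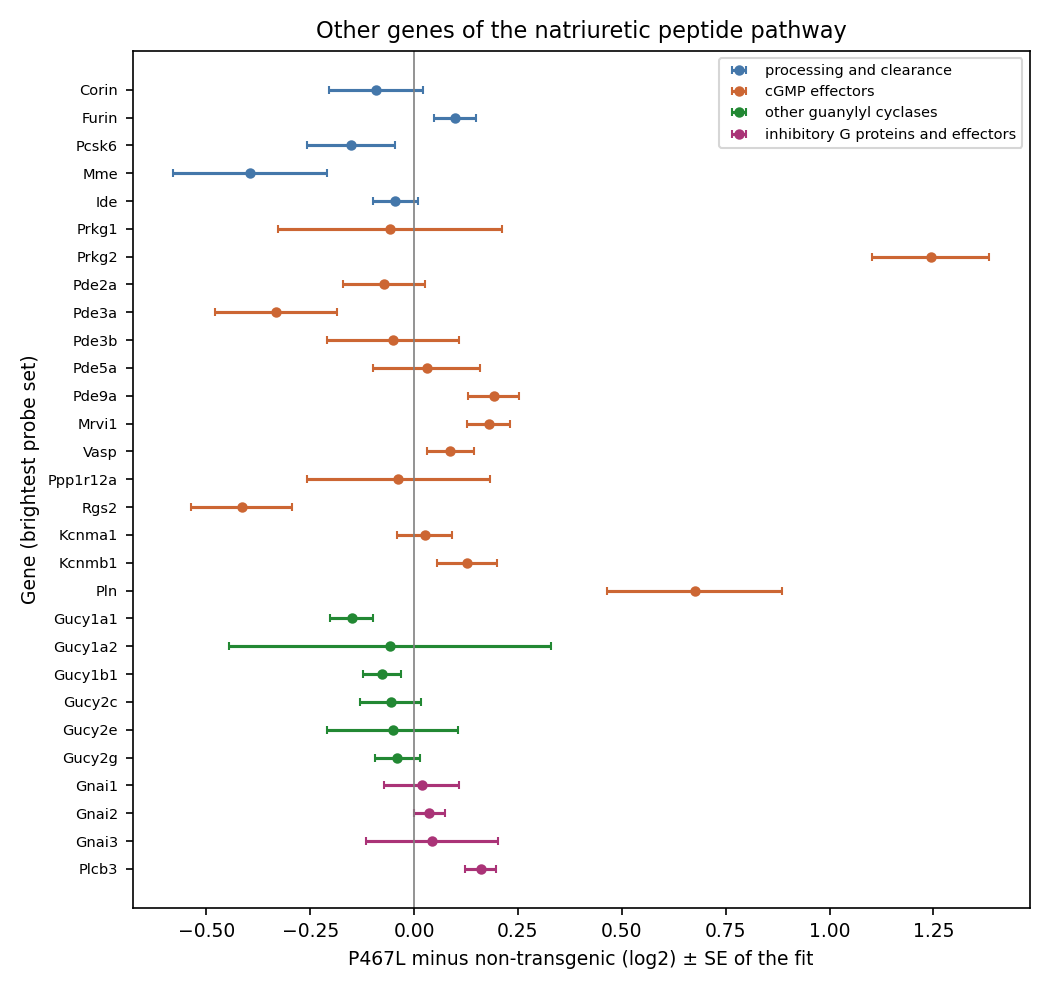
Genotype difference (horizontal axis, P467L minus non-transgenic, log2) for 29 other genes of the pathway (vertical axis), coloured by role, with bars for the SE of the limma fit. Prkg2 lies at 1.24 and Pln at 0.68, and the remaining genes lie between -0.42 and 0.19.

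Genes with an array pattern close to that of the brightest Npr3 probe set were sought. Closeness was the root mean square distance, over the 5 arrays, between the log2 deviations of each gene from its own mean. The 5 nearest were Asb5, Gabra3, Gm13306, Fam81a and Sema5a, at distances of 0.31 to 0.49 log2 units, where the median gene lay at 1.04. Such a search selects large negative genotype differences, so those of the 5 genes are no separate evidence. Asb5, an ankyrin repeat protein, measured 5.97 and 6.20 in non-transgenic arrays and 4.08, 4.40 and 4.09 in P467L arrays, a difference of -1.90 (SE 0.14). Gabra3, a subunit of the GABA-A receptor, measured 10.05 and 10.30 against 8.54, 9.22 and 9.36. In Gabra3, Gm13306 and the semaphorin gene Sema5a, as in the brightest Npr3 probe set, P467L replicate 1 was the lowest array. In each of them P467L replicate 3 was the highest of the P467L arrays. In the other Npr3 probe sets P467L replicate 1, the array with low Malat1, was instead the highest P467L array. The P467L arrays of Fam81a lay within 0.06 of one another.

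**Figure D5:**
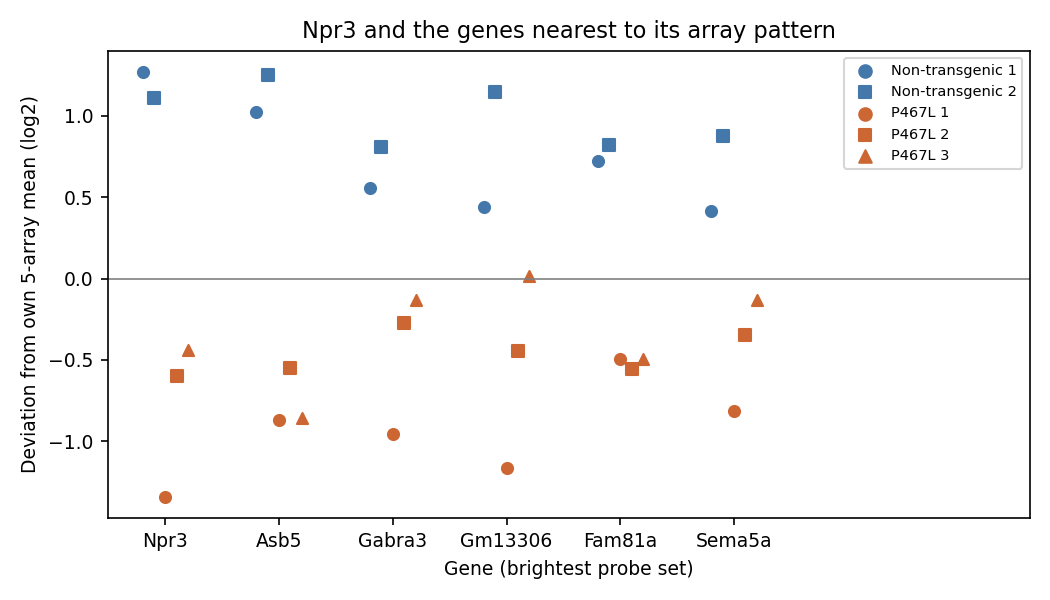
Deviation of each array from the gene's own 5-array mean (vertical axis, log2) for Npr3 and the 5 genes nearest to it in array pattern (horizontal axis). Both non-transgenic arrays lie above all P467L arrays in each gene; in Npr3 they lie at 1.27 and 1.11, and P467L replicate 1 lies at -1.34.

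Markers of cell types that carry or surround these receptors were read beside Npr3, with the groups of 22.7% of all genes separated as the background. Summed levels are log2 of the sum of linear values. Of 9 measured adipocyte markers, 6 were higher and 3 lower in P467L aortas, and 0 had separated groups; their summed level was 12.5 to 13.3 in non-transgenic and 12.2 to 12.9 in P467L arrays. Of 12 endothelial markers, 8 were higher and 4 lower, and 7 had separated groups, with a summed level of 13.18 to 13.23 in non-transgenic and 13.25 to 13.35 in P467L arrays. Among them the surface sialomucin gene Emcn differed by -1.05 (SE 0.12), the tight junction gene Cldn5 by 0.73 (SE 0.12), the nitric oxide synthase gene Nos3 by 0.47 (SE 0.05) and the receptor gene Tie1 by 0.25 (SE 0.08), each with separated groups. Cdh5, Pecam1 and Tek, which define the cell type, differed by 0.04, -0.09 and 0.02, and of these only Pecam1 had separated groups. Vwf and Erg, also with separated groups, differed by 0.10 and 0.15.

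Of 9 contractile smooth muscle markers, 5 were higher and 4 lower, and 3 had separated groups: Des, which encodes desmin, at 0.81 (SE 0.13), Smtn at 0.16 (SE 0.04) and the coactivator gene Myocd at -0.36 (SE 0.15). Their summed level, carried by Acta2 and Tagln near the top of the scale, was 16.77 to 16.78 in non-transgenic and 16.77 to 16.80 in P467L arrays. The 8 fibroblast markers, 2 of them with separated groups, summed to 15.72 to 15.78 against 15.76 to 15.83. Of 11 stomach markers 10 were lower in P467L aortas, with a median difference of -0.91, and 3 had separated groups. They summed to 11.7 in non-transgenic replicate 1 and 15.1 in replicate 2, and to 12.2 to 12.5 in P467L arrays; Npr3 measured 7.66 and 7.50 in the non-transgenic arrays. The part of adipocyte, endothelial, smooth muscle, fibroblast or stomach RNA in the Npr3 difference was not tested.

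For the peptide genes the heart is the main known source. Of 14 cardiac markers 9 were higher and 5 lower, and 2 had separated groups, with a summed level of 10.5 to 10.8 in non-transgenic and 11.8 to 11.9 in P467L arrays. In P467L arrays that sum is led by Tnnc1, the troponin C of heart and slow muscle, which measured 10.63 to 10.98 there and 5.75 to 6.40 in non-transgenic arrays. Tnnt2, cardiac troponin T, the other marker with separated groups, measured 8.43 and 8.24 against 9.35, 9.24 and 9.48, and the atrial myosin Myh6 differed by 0.83 (SE 0.40) with overlapping groups. The atrial light chain Myl7 measured 7.18 and 6.72 against 7.50, 7.14 and 7.33, also overlapping, and the ventricular light chain Myl2 lay between 4.32 and 4.33. Nppa, an atrial product as well, lay between 4.10 and 4.16 in the same arrays. The 5 lower cardiac markers were Actc1 at -0.30 (SE 0.15), Myl3 at -0.09, Tnni3 at -0.05, and Myh7 and Mybpc3 at -0.02 each. All 5 had overlapping groups. Whether the P467L pools held more heart RNA was not tested.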

How the data were processed

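RNA of 5 pools of thoracic aorta was measured on 5 arrays. Per the submitters' processing notes, the authors made the deposited log2 values with Affymetrix Power Tools and RMA; the versions are not given in the sources used here. By its design RMA removes background, gives all arrays the same distribution and combines a set's probes into 1 value, so a shift common to most transcripts would be lost. Values ran from 3.03 to 14.99. With 5 arrays, their number limits the precision.

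Names came from the platform's annotation, updated through gene numbers: 34945 of 45037 probe sets had 1 gene, 932 several and 9160 none, and 64 control probe sets were left out. The fit was limma 3.58.1 under R 4.3.3 (lmFit, then eBayes; two-sided, without covariates) across the 45037 probe sets, adjusted over all of them by Benjamini-Hochberg, with 0.05 as threshold and 4.23 total degrees of freedom. The calculation was tested on simulated data for the mean size of the differences put in. The share of such differences that pass the threshold is not given here. The labels call the pools independent, and p-values measure the spread between them. No scan date was given, and no batch was modelled.

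Every probe set of the 6 genes was named, and of the pathway list the 6 genes with the smallest p plus Ostn, Corin, Mme and Prkg1; the 5 genes nearest to Npr3 were taken by distance. Other names were chosen after their values were seen. The genes and lists were chosen with earlier results of these data known. Alternative fits used the replicate number as a block, 2 scalings, 2 filters that dropped dim probe sets, a trend in the variance, array weights, fewer arrays, looser thresholds or 1 probe set per gene.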

Additional observations from a re-analysis of the deposited data

How the results depend on the processing

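For the brightest Npr3 probe set the difference ran from -2.16 to -1.71 over all 15 alternatives. Its limma adjusted p ran from 0.0177 to 0.839. Fits on fewer arrays could not change its sign, since the groups did not overlap. The call over all probe sets changed only with array weights: the difference was -1.79 with an adjusted p of 0.0177, and 3 of the 8 probe sets were called, but the estimation of these weights did not converge, gave P467L replicate 2 a weight of 34.1 against 0.148 to 0.901 for the others, and called 2245 probe sets in all. Weights estimated gene by gene, added after seeing the data, gave -1.81 with an adjusted p of 0.0397 and called 2 of the 8 and 283 of all 45037 probe sets. At an unadjusted p of 0.05, 3 of the 8 lay past the threshold.

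Small differences changed sign. Nppa was 0.0167 with median centring. Nppb was -0.035 without P467L replicate 2, and ran up to 0.08 with 1 array left out. Npr1 was -0.0263 after a second quantile normalization, -0.005 without P467L replicate 1, -0.07 without P467L replicate 2 (0.135 without replicate 3) and -0.015 without both arrays that stood apart, a fit added after seeing the data. Nppc was 0.04 with either scaling, the shift of the median of all probe sets under median centring. The median difference of the pathway list was 0.00 with median centring and ran from -0.03 to 0.035 with 1 array left out. With median centring 0 of its genes were called, where 15 of all 45037 probe sets were. With a second quantile normalization, or without any 1 P467L array, 0 of its genes and 0 of all probe sets were called. The count of the 8 probe sets with separated groups ran from 4 to 5. The matching share of all probe sets was not computed for these settings. Groups separate more easily with fewer arrays, so these counts have no background to be read against. With the replicate number as a block, which takes the genotype difference from replicates 1 and 2 alone, the brightest Npr3 probe set differed by -2.16 with an adjusted p of 0.552 and 0 of the 8 were called. The labels share only the number, and deviations of same-numbered arrays correlated at 0.113 and 0.00814. Those of differently numbered arrays correlated at -0.146 to 0.146. Dim probe sets had no value under the filters that removed them. When non-transgenic replicate 1 or 2 was left out, the lone control was assumed to vary like the other group. Signal over background could not be judged, since the table holds no detection calls.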
